A study of Mus musculus with 36 samples.

Results

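The 9 genes described here encode proteins that crosslink, cut, extend or pull on actin filaments, or that tie them to the cell surface: the crosslinkers Flna, Actn1 and Actn4, the filament-extending factor Enah, the severing factors Cfl1 and Cfl2, the motor Myh9, and the adhesion proteins Vcl and Tln1. They were taken as a list of named genes, matched by symbol, and all 9 of 9 were found among the 34197 genes of the count table and passed the filter on low counts. Flna, Enah and Cfl2 were chosen by measured values, since their counts had led tests of pulse period in these same libraries. Their differences between periods, and between any period and DMSO, are therefore given as descriptions with no test.

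RNA was measured in organoids grown from the duodenum of C57BL/6 mice, male or virgin female and older than 8 weeks, kept in medium with EGF, Noggin and R-Spondin 1. Organoids in a microfluidic chip received pulses of DAPT, an inhibitor of gamma-secretase that blocks the cleavage of Notch receptors, every 90 min, 130 min or 170 min, and a further set received DMSO, the solvent. The pulses lasted 24, 48 or 72 h, which gave 12 groups of 3 libraries, with 20 to 50 organoids in each sample. DAPT was given at 1.38 µM for the 90 min period, at 2 µM for the 130 min period and at 2.6 µM for the 170 min period, for which 2 µM is also named, so that period and dose cannot be told apart. Organoids had been passaged 3 days before a 24 h experiment, 2 days before a 48 h experiment and 1 day before a 72 h experiment, and duration and time since passage differ together. Nothing in the labels says whether the 3 libraries of a group came from separate cultures or animals, or whether DMSO was itself pulsed, so that each p-value reflects only how far these samples spread, which may be technical.

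Actin filaments line the cortex of intestinal epithelial cells, fill the microvilli and run as a contractile belt at the cell junctions. Filamin A, encoded by Flna, holds filaments in loose networks and links them to the membrane, whereas the alpha-actinins of Actn1 and Actn4 join them into bundles. Cofilins cut filaments and release their subunits, Ena/VASP proteins such as the product of Enah speed growth at the filament tip, and non-muscle myosin IIA (Myh9) pulls on them. Talin and vinculin (Tln1, Vcl) connect filaments to integrins and to cell junctions, and expression of many of these genes is known to follow the transcription factor SRF and its coactivators, which sense free actin.

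Library totals ran from 482741 to 1447330 UMIs (counted molecules) with a median of 958749, and the 3 DMSO libraries at 24 h were among the shallower ones, with a mean of 697589 against 1039680 in the 9 pulsed libraries at 24 h. All 15 epithelial markers were detected, with a summed level of 4386 to 6696 CPM (counts scaled to a common library size) per library. Markers of other cells were low, at a summed 0.833 to 38.5 CPM for 10 fibroblast genes, 2.07 to 13.0 CPM for 8 endothelial genes, 2.73 to 22.5 CPM for 7 immune genes and 64.2 to 179 CPM for 10 smooth muscle genes. Of the smooth muscle genes only Mylk and Smtn, which epithelium also expresses, passed the filter on low counts, and Acta2, Actg2, Myh11, Tagln and Des had at most 5 UMIs in any library. In such bulk samples a lower level of a gene in every cell and fewer cells that express it cannot be told apart.

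Cfl1 had the most counts of the 9 genes and Vcl the fewest. Over the 36 libraries the mean level was 469 ± 81.4 CPM for Cfl1, 308 ± 37.6 CPM for Actn1, 182 ± 30.7 CPM for Actn4, 175 ± 39.1 CPM for Myh9, 133 ± 14.9 CPM for Cfl2, 118 ± 15.2 CPM for Flna and 79.4 ± 18.7 CPM for Tln1 (SD, n = 36 libraries). Enah averaged 10.4 ± 14.2 CPM and Vcl 6.54 ± 3.22 CPM on the same scale, and rested on 361 and 234 UMIs in all. These levels are shares of the counted molecules and not per transcript length. A tag was counted near the 3′ end of a transcript, and of the 50-base stretches in the last 400 bases of the members' coding transcripts in GENCODE M21, 1.24% for Enah and 0.475% for Cfl1 occur also in another gene (Zfp352 and Gm6180), and 0% for the other 7. How reads matching several genes were counted is not given in the sources used here.

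Of the 9 promoters, taken as 250 bases before to 50 after the start in RefSeq (GRCm38.p6, 1 promoter for each of the 9 genes), 4 held a motif of the pathways that could bear on the question. They are shown because DAPT acts on Notch, whose DNA-binding partner is RBPJ, and because SRF and the TEAD factors are known regulators of cytoskeletal genes. The motifs searched on both strands were TGGGAA for RBPJ, GGAATG for TEAD, and the CArG box for SRF. Among all 32851 promoters of this length, 25.6% held the RBPJ letters, 14.7% the TEAD letters and 1.63% a CArG box. In the lines that follow, each given 5′ to 3′ in the direction of the gene, capitals mark a match, and CATTCC is GGAATG read on the opposite strand.
Flna, chrX:74246650-74246709, minus strand: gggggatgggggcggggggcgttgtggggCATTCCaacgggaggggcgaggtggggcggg
Actn4, chr7:28962513-28962572, minus strand: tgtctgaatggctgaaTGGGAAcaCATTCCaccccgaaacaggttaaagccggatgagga
Actn1, chr12:80260554-80260613, minus strand: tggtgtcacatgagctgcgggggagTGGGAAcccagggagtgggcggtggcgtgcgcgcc
Vcl, chr14:20929158-20929217, plus strand: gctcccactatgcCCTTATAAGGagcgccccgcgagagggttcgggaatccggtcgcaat
Vcl, chr14:20929228-20929287, plus strand: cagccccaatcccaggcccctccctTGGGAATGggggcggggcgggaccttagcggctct
The CArG box was found in Vcl alone among the 9 genes. The RBPJ letters occurred in Actn1, Actn4 and Vcl and the TEAD letters in Flna, Actn4 and Vcl, and in Vcl these motifs overlap. No match was found in the windows of Enah, Cfl1, Cfl2, Myh9 and Tln1. A match is a run of letters and not evidence of binding.

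Flna, the crosslinker that had rank 2 of 11462 genes in the comparison of 130 with 90 min at 24 h and in the test for any difference among periods at 24 h, was low in 1 group. At 24 h its level was 122, 122 and 132 CPM with 90 min pulses, 95.3, 84.8 and 78.8 CPM with 130 min pulses, 103.5, 119.9 and 118 CPM with 170 min pulses, and 120.2, 122 and 99.9 CPM in DMSO. All 3 libraries with 130 min pulses lay below every other library of that duration. On the log2 scale the 130 min libraries were 0.53 below the 90 min libraries (log2 change -0.53, SE 0.12) and 0.38 below DMSO (-0.38, SE 0.14). Among the 6 members not chosen by values, only Actn1 and Cfl1 had 130 min and DMSO groups free of overlap at 24 h. Both were lower with 130 min pulses, beside 6.5% of all genes with such groups. Flna, Enah and Cfl2 were lower without overlap too, but these libraries had entered their choice. No gene of the 11462 passed an adjusted p of 0.05 in the comparison of 130 with 90 min at 24 h (0% called), and 9.54% had an unadjusted p under 0.05.

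At the longer durations the 130 min libraries were high and not low. At 48 h Flna stood at 125, 129.5 and 124 CPM with 90 min pulses, 130.4, 141 and 137 CPM with 130 min pulses, 106, 120.1 and 123 CPM with 170 min pulses, and 121, 111 and 129 CPM in DMSO. At 72 h it stood at 135, 107 and 95.4 CPM with 90 min pulses, 127, 138 and 143 CPM with 130 min pulses, 126, 111 and 111 CPM with 170 min pulses, and 107, 101 and 115 CPM in DMSO. The 130 min group had the highest mean, and its libraries lay above every DMSO library at both durations, with a log2 change from DMSO of 0.18 (SE 0.11) at 48 h and 0.34 (SE 0.12) at 72 h. At 72 h their range overlapped that of the 90 min libraries and not that of the 170 min or DMSO libraries. Groups free of overlap between 130 min and DMSO occurred for 7.81% of genes at 48 h and 14.9% at 72 h.

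**Figure D1:**
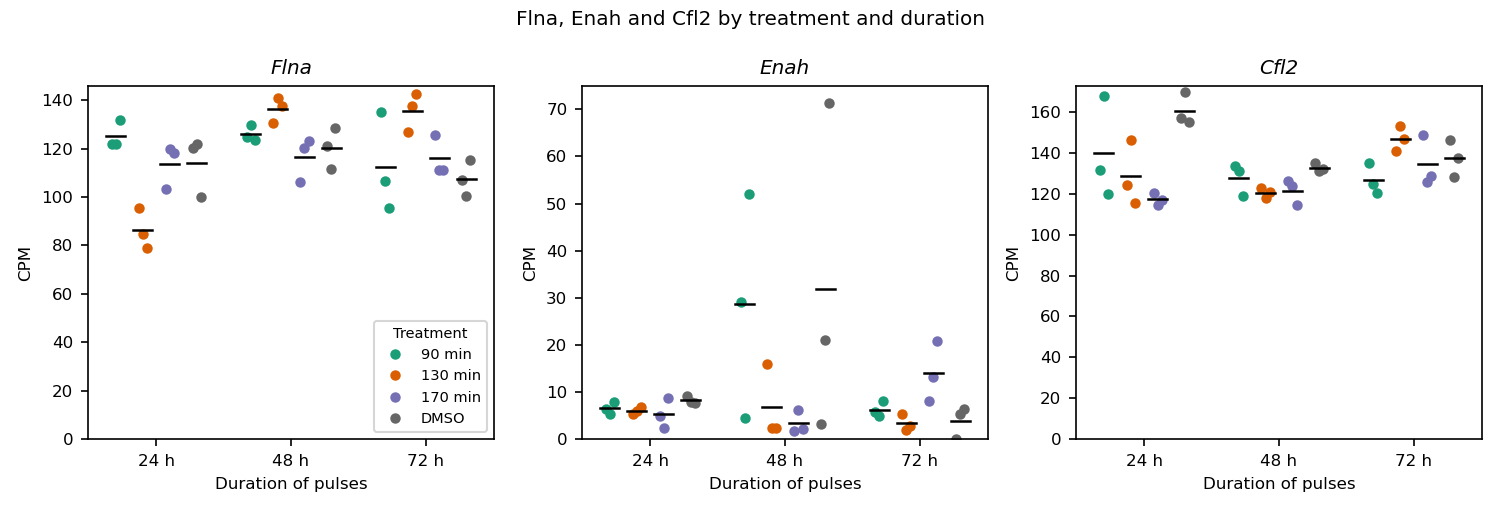
Level of Flna, Enah and Cfl2 in CPM (vertical axis) in each of 36 libraries, by duration of the pulses (horizontal axis) and, from left to right within a duration, 90 min, 130 min, 170 min and DMSO. Points are libraries and bars are means of 3. Flna is lowest in the 130 min libraries at 24 h (78.8 to 95.3 CPM), Enah is high in single libraries at 48 h (up to 71.4 CPM), and Cfl2 at 24 h is highest in DMSO (155 to 170.0 CPM) except for 1 of the 90 min libraries (168 CPM).

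Across treatments, Flna was the member with the largest change with duration relative to its error. It averaged 125 ± 9.75 CPM at 48 h against 109.8 ± 16.9 CPM at 24 h (SD, n = 12 each), a log2 change of 0.19 (SE 0.06) that did not pass the test (adjusted p = 0.351 by edgeR's quasi-likelihood test). This contrast of durations was not used to choose Flna, but the low 130 min libraries at 24 h are part of it. At 72 h Flna averaged 118 ± 15.3 CPM, 0.10 above 24 h on the log2 scale (SE 0.06, adjusted p = 0.479 by edgeR).

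The alpha-actinins were both lower in pulsed than in DMSO organoids at 24 h, by values that did not pass the test. Actn1, which bundles filaments in stress fibres and adhesions, had 261, 385 and 276 CPM with 90 min pulses, 284, 316 and 322 CPM with 130 min pulses, 303, 294 and 259 CPM with 170 min pulses, and 405, 374 and 351 CPM in DMSO at 24 h. In 8 of 9 pulsed libraries it lay below every DMSO library, the exception being 1 of the 90 min libraries. The log2 change of pulsed against DMSO libraries was -0.33 (SE 0.11, adjusted p = 0.441 by edgeR). With library total (log2) as covariate it was -0.21 (SE 0.11). How many of all genes had so many pulsed libraries beyond every DMSO library is not given here, for this or other members. Of genes of 100 to 500 CPM, 86.3% were lower with pulses at 24 h.

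Actn4, the alpha-actinin known for its part in cell motility and in kidney podocytes, had 161, 207 and 150.5 CPM with 90 min pulses, 182, 145 and 263 CPM with 130 min pulses, 174, 144 and 156 CPM with 170 min pulses, and 254, 224 and 205 CPM in DMSO at 24 h. It lay below every DMSO library in 7 of 9 pulsed libraries and above all of them in 1, the third replicate with 130 min pulses. Its log2 change was -0.38 (SE 0.13, adjusted p = 0.454 by edgeR), and with the library total as a covariate -0.13 (SE 0.11). At 24 h the 170 min libraries did not overlap DMSO for Actn1 and Actn4 among the 6 members not chosen by values. Such groups were found for 15.1% of all genes, and 89.0% of genes of 100 to 500 CPM were lower in this comparison. Cfl2 did not overlap either, but it had rank 3 of 11462 genes here and these libraries had entered its choice.

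Actn4 was lower on average with 170 min than with 130 min pulses at each duration. At 48 h it had 169, 175 and 150.5 CPM with 90 min pulses, 159, 202 and 201 CPM with 130 min pulses, 169.9, 147 and 140.4 CPM with 170 min pulses, and 158, 192 and 188 CPM in DMSO. At 72 h it had 208, 174 and 139 CPM with 90 min pulses, 218, 178 and 226 CPM with 130 min pulses, 176, 175 and 161 CPM with 170 min pulses, and 204, 176 and 184 CPM in DMSO. At 72 h the 130 min libraries were all above the 170 min libraries, and at 24 h and 48 h these groups overlapped. The 130 min mean at 24 h included 1 library at 263 CPM, beside 182 and 145 CPM in the others. Library totals averaged 1093667 UMIs with 170 min and 855825 UMIs with 130 min pulses, and their part was not tested. On the log2 scale the 170 min libraries differed from the 130 min libraries by -0.30, -0.29 and -0.27 at 24, 48 and 72 h (SE 0.16 each). Among the 6 members not chosen by values, Actn4 (lower with 170 min) and Tln1 (higher) had 170 and 130 min groups free of overlap at 72 h. Such groups were found for 10.4% of all genes, and for Actn4 the nearest libraries stood at 178 and 176 CPM. Flna (lower) and Enah (higher) did not overlap either, but tests of period had led to their choice.

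At later durations the difference of the alpha-actinins from DMSO was smaller or of opposite sign. For Actn1 the log2 change of pulsed against DMSO libraries was -0.04 (SE 0.11, adjusted p = 1.00) at 48 h and 0.15 (SE 0.11, adjusted p = 1.00) at 72 h by edgeR. In a test of whether the change differed with duration Actn1 had an unadjusted p of 0.0126 and an adjusted p of 0.990 in edgeR. In DMSO alone, Actn1 was at 302, 277 and 278 CPM at 72 h against 405, 374 and 351 CPM at 24 h, groups that did not overlap, with a log2 change of -0.40 (SE 0.13, adjusted p = 0.843 by edgeR). Such groups free of overlap were found for 13% of genes in this comparison. The comparison with pulsed libraries at 24 h and that with DMSO at 72 h share the DMSO libraries of 24 h.

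Enah, which extends filaments at the leading edge and at cell junctions, had few counts outside a handful of libraries. It had rank 2 of 11462 genes between 170 and 90 min at 48 h and rank 4 between 170 min and DMSO at 48 h. At 48 h it gave 36, 5 and 56 UMIs with 90 min pulses (29.2, 4.53 and 52.0 CPM), 15, 2 and 2 UMIs with 130 min pulses (15.9, 2.31 and 2.39 CPM), 2, 7 and 2 UMIs with 170 min pulses (1.67, 6.14 and 2.16 CPM), and 4, 17 and 60 UMIs in DMSO (3.27, 21.1 and 71.4 CPM). The 90 min and DMSO groups each held low and high libraries, so that 170 min overlapped both. The log2 change of 170 min was -3.04 (SE 0.84) from 90 min and -3.16 (SE 0.85) from DMSO. The pooled log2 change of pulsed against DMSO libraries at 48 h was -1.80 (SE 0.58), and leaving out the third DMSO library gave -0.36.

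At 72 h the 170 min libraries were the high ones. Enah gave 4, 5 and 10 UMIs with 90 min pulses, 3, 2 and 2 UMIs with 130 min pulses, 8, 16 and 18 UMIs (8.10, 13.2 and 20.9 CPM) with 170 min pulses, and 0, 6 and 6 UMIs in DMSO. A count of 0 in the first DMSO library at 72 h allows up to 4.39 CPM, the level 3 UMIs would give, as a limit of counting error alone. The 170 min libraries at 72 h were above every 90 min, 130 min and DMSO library of that duration, and 8.93% of genes had such groups without overlap between 170 min and DMSO. At 24 h, with 3 to 13 UMIs per library, Enah had 6.32, 5.42 and 7.96 CPM with 90 min pulses, 5.36, 6.06 and 6.71 CPM with 130 min pulses, 4.87, 2.33 and 8.72 CPM with 170 min pulses, and 9.25, 7.79 and 7.69 CPM in DMSO. There 7 of 9 pulsed libraries lay below every DMSO library, among them all 3 with 130 min pulses. By duration, Enah averaged 17.7 ± 22.7 CPM at 48 h against 6.54 ± 1.92 CPM at 24 h (SD, n = 12 each; log2 change 0.89, SE 0.45, adjusted p = 0.536 by edgeR) and 6.87 ± 5.53 CPM at 72 h against the same 48 h mean (log2 change -1.04, SE 0.47, adjusted p = 0.371 by edgeR).

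Cfl2, the cofilin best known from muscle, had rank 3 of 11462 genes between 170 min and DMSO at 24 h. At 24 h its level was 132, 168 and 120.1 CPM with 90 min pulses, 124, 146 and 116 CPM with 130 min pulses, 120.5, 114 and 117 CPM with 170 min pulses, and 157, 170.0 and 155 CPM in DMSO. Of the 9 pulsed libraries 8 lay below every DMSO library. The log2 change from DMSO was -0.22 (SE 0.11) with 90 min, -0.31 (SE 0.11) with 130 min and -0.46 (SE 0.11) with 170 min pulses. These changes share the 3 DMSO libraries of 24 h. The pooled change of pulsed libraries at 24 h was -0.33 (SE 0.09), and with the library total as a covariate -0.29 (SE 0.10). At 48 h the 9 pulsed libraries ranged from 114 to 134 CPM and DMSO from 131 to 135 CPM, and 7 of 9 were below DMSO. At 72 h the groups overlapped, apart from the 130 min libraries (141, 153 and 147 CPM), which were above the 90 min libraries (135, 125 and 120.3 CPM).

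Cfl1, the cofilin of most non-muscle cells, had at 24 h 439, 601 and 319.7 CPM with 90 min pulses, 507, 429 and 498 CPM with 130 min pulses, 529.7, 363 and 323 CPM with 170 min pulses, and 580.3, 531 and 516 CPM in DMSO. It lay below every DMSO library in 7 of 9 pulsed libraries and above them in 1. The log2 change was -0.29 (SE 0.16) and did not pass the test (adjusted p = 0.555 by edgeR). With the library total as a covariate it was -0.03 (SE 0.15). By duration, Cfl1 averaged 501 ± 52.6 CPM at 72 h against 436 ± 83.4 CPM at 48 h (SD, n = 12 each), a log2 change of 0.20 (SE 0.10, adjusted p = 0.401 by edgeR), and Cfl2 averaged 136 ± 10.9 CPM at 72 h against 126 ± 6.92 CPM at 48 h, a log2 change of 0.11 (SE 0.05, adjusted p = 0.383 by edgeR). Against 24 h, Cfl1 at 72 h was 0.10 higher on the log2 scale (SE 0.10, adjusted p = 0.673 by edgeR).

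Myh9, the heavy chain of non-muscle myosin IIA, was near the DMSO level when the periods were pooled. It averaged 158 ± 22.4 CPM with 90 min pulses, 197 ± 53.1 CPM with 130 min pulses, 164 ± 30.2 CPM with 170 min pulses and 180.4 ± 37.9 CPM in DMSO (SD, n = 9 libraries each), with a log2 change over all durations of 0.30 (SE 0.13) for 130 against 90 min and -0.25 (SE 0.13) for 170 against 130 min. Pulsed against DMSO libraries its log2 change was -0.06 (SE 0.11, adjusted p = 0.947 by edgeR) over all durations, and with the library total as a covariate 0.09 (SE 0.09), of opposite sign. Single libraries were high, and at 24 h each treatment but the 90 min pulses held one. At 24 h the third replicate with 130 min pulses stood at 317 CPM beside 154 and 157 CPM in the others of its group, the third with 170 min pulses at 232 CPM beside 156 and 166 CPM, and the first in DMSO at 252 CPM beside 158 and 163 CPM. At 48 h Myh9 had 139, 159 and 135 CPM with 90 min pulses, 181, 174 and 183 CPM with 130 min pulses, 119.7, 153 and 149 CPM with 170 min pulses, and 139, 213 and 169 CPM in DMSO. There the 130 min libraries lay above every 90 min and 170 min library, and within the range of DMSO. Their log2 change from 90 min was 0.32 (SE 0.23). The share of genes with such groups is not given here, nor for 130 against 90 min for Cfl2 at 72 h and Vcl at 24 h. In the comparisons where it is given, it ran from 6.5% to 15.1%. By duration Myh9 averaged 159.5 ± 25.9 CPM at 48 h against 185 ± 53.7 CPM at 24 h (SD, n = 12 each), a log2 change of -0.20 (SE 0.11, adjusted p = 0.569 by edgeR), and at 72 h it averaged 179.7 ± 30.1 CPM, 0.17 above 48 h (SE 0.11, adjusted p = 0.537 by edgeR).

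Tln1, which activates integrins and binds filaments, was the member higher in pulsed libraries at each duration, and this did not pass the test. At 72 h it had 45.5, 89.0 and 85.8 CPM with 90 min pulses, 88.0, 83.4 and 76.8 CPM with 130 min pulses, 92.2, 104 and 112 CPM with 170 min pulses, and 77.6, 66.7 and 60.3 CPM in DMSO. The 170 min libraries were above every other library of that duration, and 7 of 9 pulsed libraries were above every DMSO library. Groups free of overlap at 72 h were found for 8.93% of genes between 170 min and DMSO. Between 170 and 130 min it was 10.4%, and between 170 and 90 min the share is not given here. At 24 h Tln1 varied within groups, with 111, 47.4 and 81.0 CPM with 90 min pulses, 71.8, 35.4 and 110.7 CPM with 130 min pulses, 92.5, 87.2 and 79.9 CPM with 170 min pulses, and 83.2, 46.7 and 62.8 CPM in DMSO. At 48 h it had 81.1, 85.2 and 90.1 CPM with 90 min pulses, 77.4, 72.8 and 90.8 CPM with 130 min pulses, 56.9, 89.4 and 104 CPM with 170 min pulses, and 88.4, 65.7 and 66.6 CPM in DMSO. The groups overlapped at both of these durations. The log2 change of pulsed against DMSO libraries was 0.34 (SE 0.26, adjusted p = 0.692) at 24 h, 0.15 (SE 0.23, adjusted p = 1.00) at 48 h and 0.35 (SE 0.24, adjusted p = 1.00) at 72 h by edgeR. Averaged over durations it was 0.28 (SE 0.14, adjusted p = 0.751 by edgeR). At 24 h the value was 0.15 without the second DMSO library of that duration, 0.53 without the first and 0.21 without the third 130 min library, and over all durations it was 0.16 without the third replicates and 0.44 without the first.

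Vcl, which reinforces adhesions under load, gave 2 to 19 UMIs per library, so that single counts weigh heavily in its level. Its highest levels were 13.5 and 13.7 CPM in 2 of the 90 min libraries at 24 h and 13.1 CPM in 1 of the DMSO libraries at 48 h. At 24 h it gave 7, 10 and 19 UMIs with 90 min pulses, 5, 5 and 2 UMIs with 130 min pulses, 4, 11 and 13 UMIs with 170 min pulses, and 2, 5 and 5 UMIs in DMSO. In CPM the 130 min libraries lay below every 90 min library (log2 change -1.22, SE 0.59), and the other groups overlapped. The log2 change of pulsed against DMSO libraries was 0.15 (SE 0.30, adjusted p = 0.950 by edgeR) over all durations. Between 72 h and 24 h it was -0.36 (SE 0.31, adjusted p = 0.627 by edgeR).

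**Figure D2:**
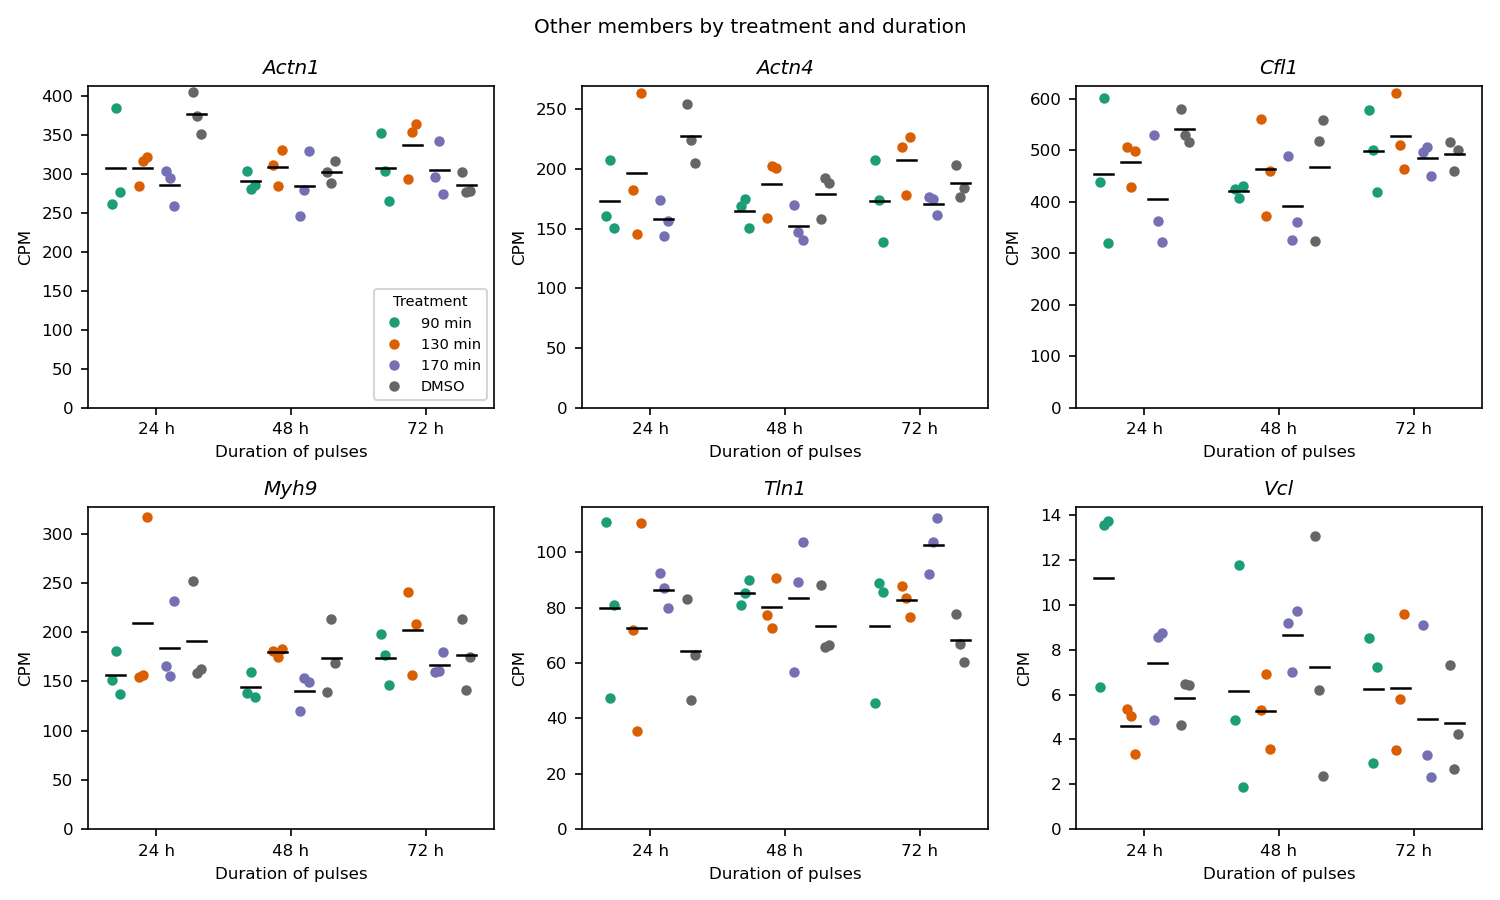
Level of Actn1, Actn4, Cfl1, Myh9, Tln1 and Vcl in CPM (vertical axis) in each of 36 libraries, by duration (horizontal axis) and, from left to right within a duration, 90 min, 130 min, 170 min and DMSO. Points are libraries and bars are means of 3. At 24 h DMSO has the highest mean for Actn1 (376 CPM), Actn4 (228 CPM) and Cfl1 (542 CPM), and Tln1 at 72 h is highest with 170 min pulses (103 CPM).

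In the 9 comparisons tested, no member other than Flna, Enah and Cfl2 passed an adjusted p of 0.05 with edgeR or with DESeq2. None of all 9 members did so in the 3 comparisons of durations averaged over treatments, with either method. At 48 h against 24 h DESeq2 gave no adjusted p to at least Flna, Enah and Cfl2, which it could therefore not call there. For the comparisons of pulsed with DMSO libraries, the test of a change with duration and DMSO alone, DESeq2 called 0 genes of the whole table as well. In pulsed against DMSO libraries over all durations 0% of all 11462 genes were called, and 765 (6.67%) had an unadjusted p under 0.05, among them 1 of the 6 members other than Flna, Enah and Cfl2 (Actn4). At 24 h 0% were called, with 1155 (10.1%) at an unadjusted p under 0.05 and 2 of the 6 members (Actn1 and Actn4). At 48 h and at 72 h 0% were called and 0 of the 6 members had an unadjusted p under 0.05, beside 2.42% and 4.06% of all genes. The test of whether the change with DAPT differed between durations called 0% of genes, and 3.94% of genes and 1 of the 6 members (Actn1) had an unadjusted p under 0.05.

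Between durations, with treatments averaged, all 9 genes could be tested with edgeR. At 48 h against 24 h 0% of genes were called by edgeR and 12 genes by DESeq2, and 1 of 9 members (Flna) and 0 of the 6 others had an unadjusted p under 0.05, beside 9.63% of all genes. At 72 h against 24 h 18 genes (0.157%) were called by edgeR and 102 by DESeq2, none of them a member, and 0 of 9 members had an unadjusted p under 0.05, beside 14.8% of all genes. The summed level of the 10 fibroblast markers, of which Vim alone passed the filter, had a median of 13.8 CPM at 24 h, 13.9 CPM at 48 h and 2.89 CPM at 72 h (n = 12 each), and its part in the changes between durations was not tested. At 72 h against 48 h 0% were called by edgeR and 9 genes by DESeq2, and 2 of 9 members (Enah and Cfl2) and 0 of the 6 others had an unadjusted p under 0.05, beside 12.6% of all genes. The change of Enah rests on the few high libraries of 48 h that also entered its choice. In DMSO alone, 72 h against 24 h, 0% were called, and Actn1 was the 1 of 6 members with an unadjusted p under 0.05, beside 5.81% of all genes.

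For the 6 members other than Flna, Enah and Cfl2, the median log2 change in pulsed against DMSO libraries was -0.17 at 24 h (2 higher and 4 lower), -0.11 at 48 h (1 higher and 5 lower) and 0.09 at 72 h (5 higher and 1 lower), and none of the 6 passed the test of whether the change differed with duration. Genes of 100 to 500 CPM were lower with pulses in 86.3%, 60.5% and 53.5% of cases at 24, 48 and 72 h. With Flna, Enah and Cfl2 included, whose values had led to their choice, the median of the 9 genes was -0.29 at 24 h (2 higher and 7 lower), -0.11 at 48 h (2 higher and 7 lower) and 0.15 at 72 h (7 higher and 2 lower), whereas the median over all genes tested was 0.01, -0.00 and 0.00 at these durations. In DMSO alone the median between 72 h and 24 h was -0.20 for the 6 (1 higher and 5 lower) and -0.24 for the 9 (1 higher and 8 lower), and 77.1% of the genes of 100 to 500 CPM were lower there. The changes at 24 h and in DMSO alone share the DMSO libraries of 24 h.

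**Figure D3:**
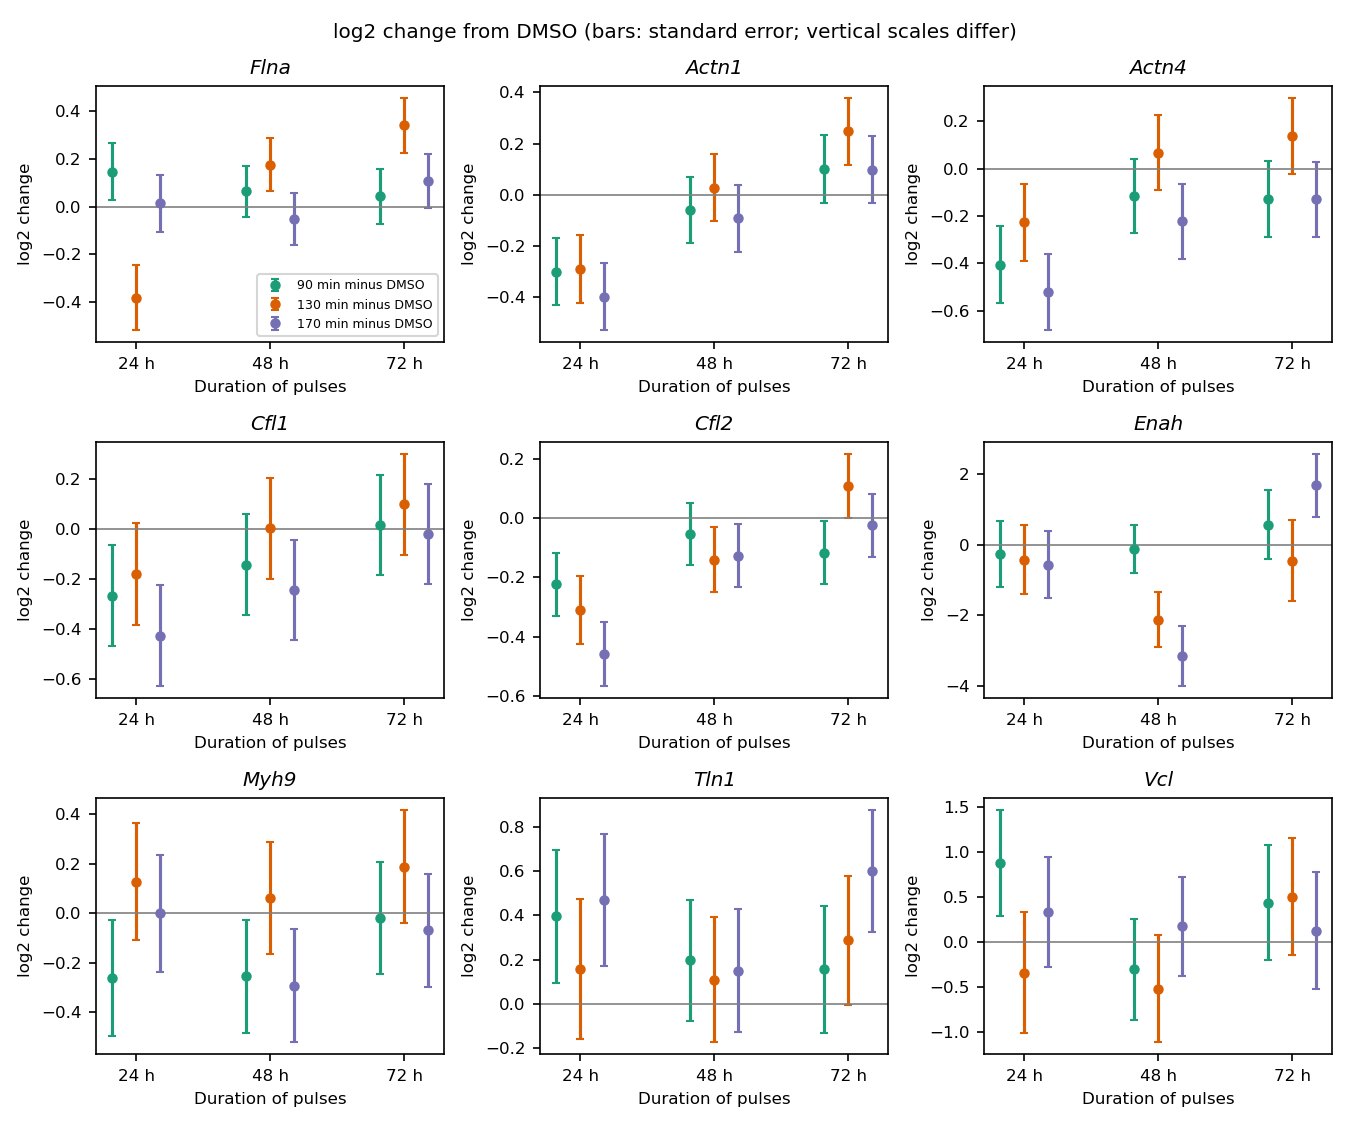
log2 change from DMSO (vertical axis, scales differ between panels) of each gene with 90, 130 and 170 min pulses at each duration (horizontal axis), with bars of 1 standard error and 3 libraries per group. The periods share the DMSO libraries of a duration. Actn1 lies below 0 at 24 h with each period (-0.30, -0.29 and -0.40), and Flna with 130 min pulses is at -0.38 at 24 h and 0.34 at 72 h.

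Several members followed library depth. Over the 36 libraries, as a description, the log2 CPM of Actn4 was lower the higher the log2 of the library total (Pearson's r = -0.82, Spearman's rho = -0.82), and so was that of Cfl1 (r = -0.69, rho = -0.73), Myh9 (r = -0.69, rho = -0.71), Actn1 (r = -0.62, rho = -0.58) and Cfl2 (r = -0.46, rho = -0.44). Without the 2 libraries farthest from the median total, r was -0.78 for Actn4, -0.65 for Cfl1, -0.59 for Myh9, -0.59 for Actn1 and -0.38 for Cfl2. Flna (r = 0.00), Enah (r = 0.05), Tln1 (r = 0.12) and Vcl (r = 0.23) showed little of this. Such a relation was common among genes of like level, with a median r of -0.47 over the 3468 genes between 100 and 500 CPM and r below -0.5 in 46.4% of them, against a median of 0.13 over all genes tested.

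**Figure D4:**
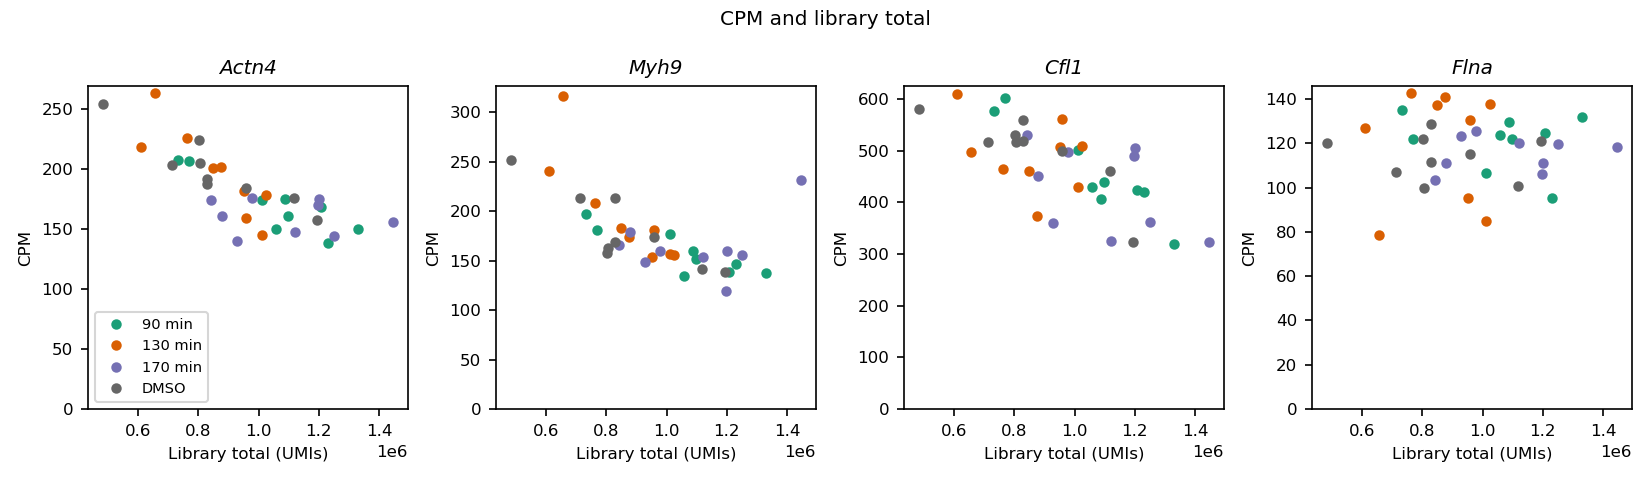
Level in CPM (vertical axis) of Actn4, Myh9, Cfl1 and Flna against the library total in UMIs (horizontal axis), with 1 point for each of 36 libraries, coloured by treatment. Actn4, Myh9 and Cfl1 are lower at higher totals (r of log values -0.82, -0.69 and -0.69), and Flna shows no slope (r = 0.00).

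Within groups the members varied together only in part. After subtraction of group means, the correlation of log2 CPM over the 36 libraries was 0.69 between Actn4 and Myh9 and 0.50 between Actn4 and Cfl1, all 3 of them genes that were lower in deeper libraries. It was -0.68 between Cfl2 and Tln1 and -0.68 between Enah and Vcl, which both have few counts. The median over the 36 pairs of members was 0.06 and that over all pairs of genes tested was -0.00. These libraries share depth and replicate structure, and the values are descriptions.

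**Figure D5:**
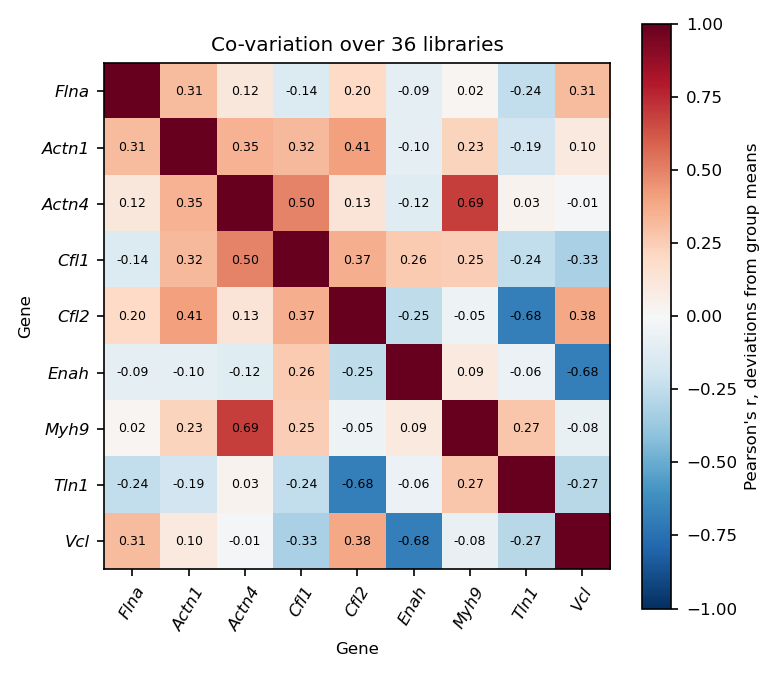
Pearson's r between members (rows and columns) of log2 CPM over 36 libraries after subtraction of group means, with red above 0 and blue below. Actn4 and Myh9 have the highest value (0.69), and Cfl2 with Tln1 and Enah with Vcl the lowest (-0.68 each).

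The genes whose log2 CPM followed the leading members most closely over the 36 libraries were named among 9032 genes of at least 20 CPM on average, again as a description. Flna was closest to Wnk1 (r = 0.67), Tecpr1 (0.67), Sorbs2 (0.66), Map3k21 (0.65) and Ptpn14 (0.64). After subtraction of group means these values were 0.65, 0.27, 0.64, 0.47 and 0.36. Differences between the groups had entered the choice of Flna. Cfl2 was closest to U2surp (0.73), Taf1d (0.71), Rock2 (0.71), S100a10 (0.71) and Tspan8 (0.71), of which Rock2 encodes a kinase that acts upstream of cofilin through LIM kinases. Enah, with its few counts, was closest to Umps (0.61), Rpl10 (0.56), Rcc1l (0.54), Tmem199 (0.52) and Capn15 (0.52). With group means subtracted, r ran from 0.56 to 0.67 for the genes like Cfl2 and from 0.43 to 0.65 for those like Enah.

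The wider actin machinery was read from 9 lists of related genes with 184 genes in all, of which 182 were in the count table and 160 were tested. Of the tested genes 3 stand in more than 1 list and are counted in each. No gene of these lists passed an adjusted p of 0.05 in any comparison in edgeR (0 of 160, against the 0% and 0.157% of all genes given above). In pulsed against DMSO libraries at 24 h 33 were higher and 127 lower (79.4%), with a median log2 change of -0.15. Of all tested genes 48.3% were lower at 24 h, and of the 3468 genes of 100 to 500 CPM 86.3%, with the same median of -0.15. The median level of the listed genes was 138 CPM. With the library total as a covariate 53 of the listed genes were higher and 107 lower at 24 h, with a median of -0.04. At 72 h 116 were higher and 44 lower, with a median of 0.06 and 0.07 with the covariate, beside 53.5% lower among genes of 100 to 500 CPM. In DMSO alone, 72 h against 24 h, 31 were higher and 129 lower, with a median of -0.16, and with the covariate 56 and 104, with a median of -0.08. At an unadjusted p under 0.05 there were 31 of the 160 genes at 24 h, 11 at 72 h and 27 in DMSO alone. Of all genes it was 10.1%, 4.06% and 5.81%, and no such share is given here for genes of like level. The counts at 24 h and in DMSO alone share the DMSO libraries of 24 h. DESeq2 called 0 of the listed genes in each of the 9 comparisons.

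By list, all 9 tested actin isoforms and monomer-binding genes were lower at 24 h (median -0.24). Tmsb10, which holds free actin, was at -0.34 (SE 0.13, adjusted p = 0.454 by edgeR). Beside the counts of this and the other lists, 86.3% of genes of 100 to 500 CPM were lower at 24 h. Of the partners of cofilin and other severing genes 11 of 16 were lower, led by Dstn, which encodes destrin of the same family, at -0.45 (SE 0.12, adjusted p = 0.441). Of other crosslinkers and membrane linkers 16 of 19 were lower, with Marcks at -0.32 (SE 0.12, adjusted p = 0.454). Among Ena/VASP relatives, formins and the Arp2/3 complex 22 of 30 were lower, with Arpc1b, an Arp2/3 subunit, at -0.36 (SE 0.11, adjusted p = 0.441). Of myosin II, RhoA pathway and tropomyosin genes 14 of 20 were lower, with Myl12a, a regulatory light chain, at -0.34 (SE 0.11, adjusted p = 0.441).

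Among the adhesion and junction lists, 17 of 21 focal adhesion partners were lower at 24 h (Tes, which binds zyxin, -0.26, SE 0.09, adjusted p = 0.454) and 12 of 14 junction partners lower (Cdh1, the epithelial cadherin, -0.22, SE 0.10, adjusted p = 0.479). Of SRF regulators and targets 12 of 15 were lower (Tagln2 -0.35, SE 0.11, adjusted p = 0.441), and of brush border genes 17 of 19 (Ezr, which links microvillar filaments to the membrane, -0.25, SE 0.11, adjusted p = 0.479). Between 72 h and 24 h the nearest to the threshold were Mrtfa, a coactivator of SRF, at 38.3 ± 8.02 CPM at 72 h against 28.5 ± 6.37 CPM at 24 h (SD, n = 12 each; log2 change 0.45, SE 0.12, adjusted p = 0.0926 by edgeR), and Inf2, a formin, at 33.1 ± 11.1 CPM at 72 h against 21.9 ± 6.56 CPM at 24 h (log2 change 0.60, SE 0.17, adjusted p = 0.0928 by edgeR).

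Libraries of the 170 and 130 min periods with the same replicate number deviated together at every duration. A fit of these libraries alone, with the replicate number as a block, called 11 genes over all durations (0.096%) and 10 at 72 h (0.0872%). None of these was a member. The fit of all 36 libraries without the block called 0 in both comparisons, and it differs in its libraries as well as in the block. In that paired fit Actn4 had a log2 change of -0.28 (SE 0.09) and Myh9 of -0.25 (SE 0.08) over all durations, both lower with 170 min than with 130 min pulses, and these values are given as descriptions. Library totals averaged 1093667 UMIs with 170 min and 855825 UMIs with 130 min pulses (n = 9 each), and both genes were lower in deeper libraries, whose part in the difference was not tested.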

How the data were processed

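The deposited table holds whole-number UMI counts per gene for 36 libraries, made with the Sort-seq method per the labels' protocols. The submitters' processing notes name STAR 2.7.8a and UMI-tools 1.1.1. Not given in the sources used here were genome build, annotation and the rule for counting. All 36 columns matched a sample by name, with 0 left over. Totals of 482741 to 1447330 UMIs limit the precision of genes with few counts, and limits given for counts cover counting error only.

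Genes were kept with filterByExpr by group in edgeR 4.0.16 (R 4.3.3), which left 11462 of 34197 and all 9 members. CPM values use totals of the tested genes scaled by TMM, and log2 CPM a prior count of 2. One model with 12 group coefficients (24 residual degrees of freedom, biological coefficient of variation 0.145) was fitted with the robust quasi-likelihood test, and p-values were adjusted by Benjamini-Hochberg over all tested genes at a threshold of 0.05. The standard errors come from the test statistic and are not allowed below the counting error. DESeq2 1.42.0, other scalings, no filter, library total as covariate, replicate blocks and left-out libraries were alternatives. The fitting script was tested on simulated counts.

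The members, the gene lists and the comparisons were chosen with earlier results of these data known. Named genes were the 9 members, the gene of smallest p in each list where none passed, and the 5 genes most like Flna, Enah and Cfl2. Same-numbered libraries of different treatments were checked for shared deviations from group means at each duration. Every same-number correlation exceeded 0.1 in 5 of 18 checks: 170 with 130 min at all 3 durations (0.24 to 0.59) and 90 min with DMSO at 24 h and 48 h (0.138 to 0.491). The labels do not say what the numbers mark. Promoter sequences are RefSeq's (GRCm38.p6), and 3′ ends GENCODE M21's.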

Additional observations from a re-analysis of the deposited data

Results flagged for a closer look

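Some members moved in opposite directions at different durations under the same contrast, with every library of each group on its own side of the other group's mean. These values are differences of mean CPM over 3 libraries each. The share of all genes that moved in this way is not given here. The differences between durations were not tested, and the choice of Flna, Enah and Cfl2 had used comparisons of periods.

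Flna in 130 min minus DMSO libraries was -27.7 CPM at 24 h, 15.9 CPM at 48 h and 28.1 CPM at 72 h. Against 90 min libraries the 130 min libraries differed by -38.8 CPM at 24 h, 10.3 CPM at 48 h and 23.2 CPM at 72 h. For 170 min minus 130 min libraries Flna gave 27.5 CPM at 24 h, -19.7 CPM at 48 h and -19.7 CPM at 72 h. These 3 contrasts share the 130 min libraries.

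Actn1 in 130 min minus DMSO libraries was -69.1 CPM at 24 h and 51.6 CPM at 72 h. Enah in 170 min minus 90 min libraries was -25.3 CPM at 48 h and 7.82 CPM at 72 h. Cfl2 in 130 min minus DMSO libraries was -31.9 CPM at 24 h, -12.3 CPM at 48 h and 9.56 CPM at 72 h.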

How the results depend on the processing

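Other settings numbered 48, with 45 of them run for comparisons of durations, and leaving out the 24 h libraries was run for 1 comparison alone, where Vcl did not pass the filter. In these none of the 6 members other than Flna, Enah and Cfl2 was called in a comparison (lowest adjusted p = 0.198 by edgeR, Actn4 at 24 h without the third 130 min library), nor any of all 9 between durations (lowest 0.17, Flna at 48 h against 24 h). DESeq2 gave no adjusted p to at least Flna, Enah and Cfl2 at 48 h against 24 h. Of 1558 recomputed member values 8 changed sign, none of them past the threshold. In pulsed against DMSO libraries over all durations, Myh9 (-0.06) became 0.0936 with library total as covariate and 0.129 with the replicate block and the covariate, and ran from -0.14 to 0.0259 with libraries left out. Actn1 (-0.07) became 0.0022 with block and covariate and 0.0502 without the 24 h libraries, and Vcl (0.15) ran from -0.0391 to 0.47 with libraries left out. Cfl1 at 24 h (-0.29) became 0.0136 with block and covariate. The cause was not tested. Enah at 48 h ran from -2.79 to -0.36, its value without the third DMSO library.

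Over all genes, 72 h against 24 h called 18 genes, 102 with DESeq2, 304 without the filter and 0 to 152 with libraries left out, and 72 h against 48 h called 0, 9, 132 and 0 to 59. At 48 h against 24 h it was 0, 12 and 7. The replicate block changed no call of a member. With 170 and 130 min libraries alone, the fit with the block called 11 genes over all durations and 10 at 72 h. This alternative was chosen after seeing the data. The fit of all 36 libraries without the block called 0 each, and it differs in its libraries as well as in the block. For durations, same-numbered libraries of a treatment had correlations of -0.353 to 0.549 (median 0.0156), with every one over 0.1 in 2 of 12 checks. Replicate number as 1 block over all libraries, also chosen after seeing the data, called 12 genes between 72 h and 24 h and 0 in the other comparisons of durations, with 0 of 9 members in each. Few counts limit Enah (0 to 60 UMIs per library) and Vcl (2 to 19).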
